A study of Mus musculus with 14 samples.

Results

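Transcripts of the nuclear-encoded subunits of oxidative phosphorylation were followed by complex in ventricles of mice given the compound MRL5 or its vehicle. The subunit genes were taken by symbol: names starting with Ndufa, Ndufb, Ndufc, Ndufs or Ndufv for complex I, Sdha to Sdhd for complex II, Uqcr for complex III, Cox4 to Cox8 for complex IV and Atp5 for complex V. Assembly factors (Ndufaf) were not included, and 2 pseudogene symbols ending in -ps were left out. The rule took 87 entries, of which 3 repeated the values of another entry, which left 84 genes of 14144 in the table. These were 39 genes of complex I, 4 of complex II, 8 of complex III, 16 of complex IV and 17 of complex V, and all 84 passed the filter on low values. A few symbols sit loosely in the set. Ndufb4c is annotated as a processed pseudogene and may share reads with Ndufb4, Ndufa4 is now regarded as a subunit of complex IV although its symbol places it in complex I here, and Cox7a2l is a factor that joins complexes into supercomplexes.

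The samples were ventricles of 14 male mice, taken 4 h after an intraperitoneal injection, and polyadenylated RNA was sequenced as paired-end libraries. GX mice carried the GX form of the cardiac sodium channel on both alleles (GX/GX) and were compared with wild-type mice (WT/WT). MRL5 is a compound of the GX family, known here by its code name alone, which per the series' design blocks the GX channel, and dimethyl sulfoxide (DMSO) was the vehicle. The groups were GX DMSO with 4 mice, GX MRL5 with 5, WT DMSO with 3 and WT MRL5 with 2. The design text gives 4 GX mice for MRL5 and the labels give 5, and all 5 were used. Age and strain background are not given in the sources used here. Replicates are numbered as the records list them, and the labels name a different mouse for each library.

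Oxidative phosphorylation takes electrons from NADH at complex I and from succinate at complex II, passes them through complex III and cytochrome c to oxygen at complex IV, and uses the resulting proton gradient at complex V to make ATP. All subunits of complex II are encoded in the nucleus, while the other complexes also hold subunits encoded by mitochondrial DNA. Heart muscle draws most of its ATP from this pathway, and for several complex IV subunits it makes a muscle isoform beside the form found in liver and most other tissues. The nuclear genes are known targets of the factors NRF-1, GABP (an ETS factor), ERR and YY1, with PGC-1 proteins as coactivators.

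The unit of the table is a signal in scaled reads per base. It is not a read count, the depth of the libraries cannot be read from it, and levels are compared between libraries for one gene, not between genes. Column sums lay between 17235132 and 22153780, and the 13 mitochondrially encoded subunits made up 38.9% to 49.7% of them. The 84 nuclear subunit genes held 7.03% to 10.3% of the nuclear-encoded signal. Library names fall into 2 sets, of which set 174 consists of a GX MRL5 library (number 4) and of numbers 2 and 3 of WT DMSO, and all others are of set 148. Within set 148 the names of GX DMSO 4, GX MRL5 5, WT DMSO 1 and WT MRL5 2 end in S0. The others of that set end in S81 to S88. The labels do not say what these endings stand for, and their part in the values was not tested. As a measure of transcript length bias, the mean log2 signal of 795 genes with transcripts of at least 6478 bases was subtracted from that of 796 genes of up to 1226 bases. This length index lay between 0.57 and 1.20 and was highest in GX DMSO 4 (1.20), WT MRL5 1 (1.02) and GX MRL5 1 (0.98). All 8 cardiomyocyte markers were present, with a summed signal of 660452 to 914785. Endothelial markers (5 of 5) summed to 10802 to 14171, fibroblast markers (5 of 5) to 7180 to 14568, macrophage markers (5 of 5) to 993 to 2015, smooth muscle markers (3 of 3) to 1381 to 4324, erythroid markers (5 of 5) to 16314 to 38022 and neutrophil markers (2 of 2) to 1.16 to 89.2. Atrial markers (3 of 4 in the table) summed to 796 to 6068 under DMSO and 2144 to 5101 under MRL5 in GX mice. In WT mice they summed to 1715 to 26227 under DMSO and 1545 to 2503 under MRL5, and the highest sum was that of WT DMSO 2, where the atrial light chains Myl7 and Myl4 reached 3967 and 5676. In bulk ventricle, fewer cells of a type and less RNA per cell cannot be told apart.

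Promoters of the subunit genes were read from RefSeq (GRCm38.p6), which gave a window of 250 bases before to 50 bases after the gene start for 68 of the 84 genes. Cox6a1, a complex IV subunit that had the smallest p of all members in 3 of the 5 comparisons, is shown with Ndufa8 and Ndufb7, accessory subunits of complex I that were among the 5 members with the smallest p for MRL5 in WT mice. These were chosen because their windows hold an NRF-1 or ETS core; of the 5 members, Ndufb11 and Atp5g1 had neither in theirs. Each line holds the 250 bases before the start, 5′ to 3′ on the gene's strand, and capitals mark an NRF-1 core (CGCATGCG) or an ETS core (CCGGAAG, or CTTCCGG where it lies on the other strand).
Cox6a1 (chr5:115348959-115349208, minus strand): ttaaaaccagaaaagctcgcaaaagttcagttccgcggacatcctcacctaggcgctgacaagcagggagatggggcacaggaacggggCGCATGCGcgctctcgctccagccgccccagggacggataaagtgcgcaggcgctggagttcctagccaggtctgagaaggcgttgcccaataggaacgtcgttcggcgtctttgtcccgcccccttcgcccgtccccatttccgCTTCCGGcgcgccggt
Ndufa8 (chr2:36049339-36049588, minus strand): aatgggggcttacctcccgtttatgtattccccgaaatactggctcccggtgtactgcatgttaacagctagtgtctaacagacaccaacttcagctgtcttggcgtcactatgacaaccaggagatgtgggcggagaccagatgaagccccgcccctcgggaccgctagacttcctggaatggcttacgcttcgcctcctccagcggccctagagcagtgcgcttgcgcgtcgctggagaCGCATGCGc
Ndufb7 (chr8:83566508-83566757, plus strand): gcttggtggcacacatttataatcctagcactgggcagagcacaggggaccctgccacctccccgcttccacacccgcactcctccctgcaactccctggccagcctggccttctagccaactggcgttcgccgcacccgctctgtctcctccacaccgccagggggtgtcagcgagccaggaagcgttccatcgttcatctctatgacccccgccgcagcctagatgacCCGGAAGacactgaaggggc
The Cox6a1 window holds both cores, that of Ndufa8 an NRF-1 core next to the start, and that of Ndufb7 an ETS core. The start is that of RefSeq. In GENCODE M21 these genes start inside the windows shown, at 115348981 (Cox6a1), 36049406 (Ndufa8) and 83566671 (Ndufb7). By that annotation the ETS cores of Cox6a1 and Ndufb7 and the NRF-1 core of Ndufa8 lie after the start. Searched on both strands of the whole window, the NRF-1 core was in 8 of the 68 subunit promoters (11.8%), against 2.54% of 17492 promoters of protein-coding genes. The ETS core was in 16 of 68 (23.5%, against 11.9%), the YY1 element AAGATGGCG in 6 of 68 (8.82%, against 1.94%) and the ERR element TCAAGGTCA in 2 of 68 (2.94%, against 0.332%). The CCAAT box was in 29 of 68 (42.65%, against 39.03%), and the TATA box TATAAA in 7 of 68 (10.3%, against 13.3%). These matches describe the letters of the windows and are no measure of binding.

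Subunit transcripts of complexes I, III, IV and V stood high or low in the same mice, and those of complex II varied least. For each gene the log2 difference from its own mean over the 14 libraries was taken, and these were averaged over a complex. GX DMSO 4 stood highest, at 0.46 for complex I, 0.41 for complex III, 0.52 for complex IV and 0.50 for complex V, but at 0.10 for complex II. Of the 84 genes, 68 had their highest signal in this one library. WT MRL5 1 (0.17 over all members) and GX MRL5 1 (0.14) came next, and these 3 libraries also had the highest length index. The lowest libraries were WT DMSO 2 (-0.27), GX MRL5 4 (-0.19) and GX DMSO 3 (-0.14), and 55 of the 84 genes had their lowest signal in WT DMSO 2. These 3 libraries also had the most signal of the atrial light chains, with Myl7 at 3967, 133 and 643 and Myl4 at 5676, 265 and 868. In the other libraries Myl7 reached at most 21 and Myl4 at most 103. Nppa, the other atrial marker counted here, was also highest in WT DMSO 2 (16584). It read 1746 in GX MRL5 4 and 4092 in GX DMSO 3, against 6028 in GX DMSO 4 and 5073 in GX MRL5 1. The part of atrial tissue and of transcript length in the order of the libraries was not tested.

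By group, the mean over all members was 0.079 ± 0.26 (SD, n = 4) in GX DMSO, -0.013 ± 0.13 (n = 5) in GX MRL5, -0.14 ± 0.12 (n = 3) in WT DMSO and 0.090 ± 0.11 (n = 2) in WT MRL5. Without its highest library, GX DMSO ran from -0.14 to 0.029, inside the range of GX MRL5 (-0.19 to 0.14). The WT MRL5 libraries (0.012 and 0.17) lay above the 3 WT DMSO libraries (-0.27 to -0.039). The cytosolic ribosomal protein genes, 82 of them and outside this pathway, were also highest in GX DMSO 4 (0.51) and ranged from -0.18 to 0.10 in the other libraries.

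**Figure D1:**
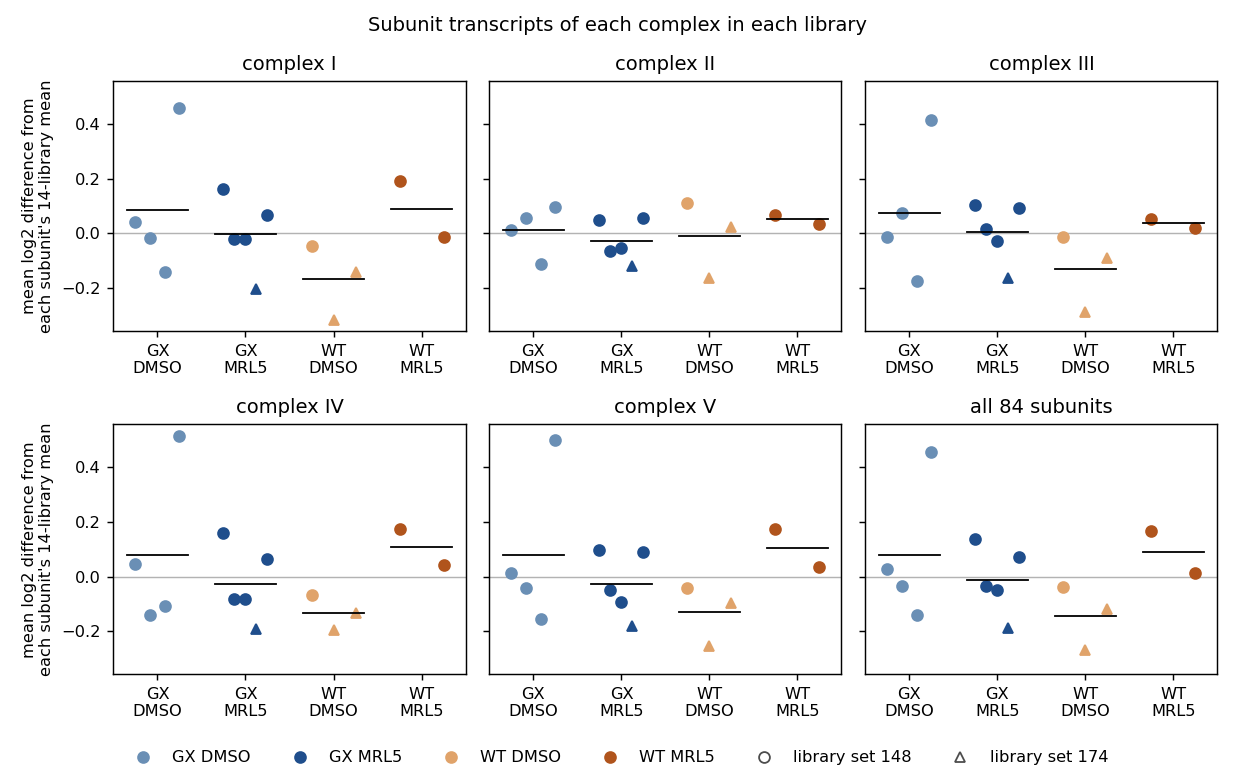
Mean log2 difference from each subunit gene's own 14-library mean (vertical axis), by complex and group. Points are libraries, triangles mark library set 174 and bars are group means; GX DMSO 4 stands at 0.41 to 0.52 in complexes I, III, IV and V and at 0.10 in complex II.

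The spread of single genes followed the same division. Complex II genes had a median ratio of highest to lowest library of 1.28, against 1.78 in complex I, 1.74 in complex III, 1.87 in complex IV and 1.84 in complex V. Sdhd, a membrane anchor of succinate dehydrogenase, was the steadiest of all members, with a signal of 8518 to 9840 and a ratio of 1.16, followed by the other anchor Sdhc at 1.20. Sdha, the flavoprotein that oxidises succinate, had a ratio of 1.37 and the iron-sulfur subunit Sdhb one of 1.43. The catalytic subunits of ATP synthase also varied little, with Atp5a1 (alpha) at 1.28 and Atp5b (beta) at 1.32, and so did the Rieske protein Uqcrfs1 (1.29) and the core protein Uqcrc1 (1.32) of complex III. In complex I the iron-sulfur subunit Ndufs1 had a ratio of 1.31. At the other end stood Cox6b2 (3.82), the testis form of a complex IV subunit with a signal of 8.77 to 33.5, then Atp5g2 (2.96), Atp5md (2.95), Uqcrq (2.60), Cox8b (2.40) and Cox6a1 (2.38).

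Members with a short coding sequence spread more than long ones. The 27 with 156 to 312 coding bases had a median ratio of highest to lowest library of 2.10, the 27 with 315 to 504 bases one of 1.90 and the 29 with 507 to 2181 bases one of 1.48. In GX DMSO 4 the same classes stood at 0.64, 0.49 and 0.26 on the log2 scale above their 14-library means. These classes go by coding length, whereas the length index goes by transcript length. The transcripts of Atp5md and Uqcrq, both in the shortest class, have 2733 and 1521 bases. Groupings by role and by length were chosen after the values were seen. By role, the 7 core subunits of complex I had a median ratio of 1.44. The 32 other genes placed there by symbol, Ndufb4c and Ndufa4 among them, had one of 1.83. In complex V the 5 subunits of the F1 head and stalk had a median of 1.32, the 4 of the peripheral stalk 1.59 and the 3 genes of the c-ring 1.99. Sdhd departs from the order by length, being the steadiest member at 477 coding bases. So does Ndufs7, a core iron-sulfur subunit of complex I, with a ratio of 2.09 at 672 coding bases.

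**Figure D2:**
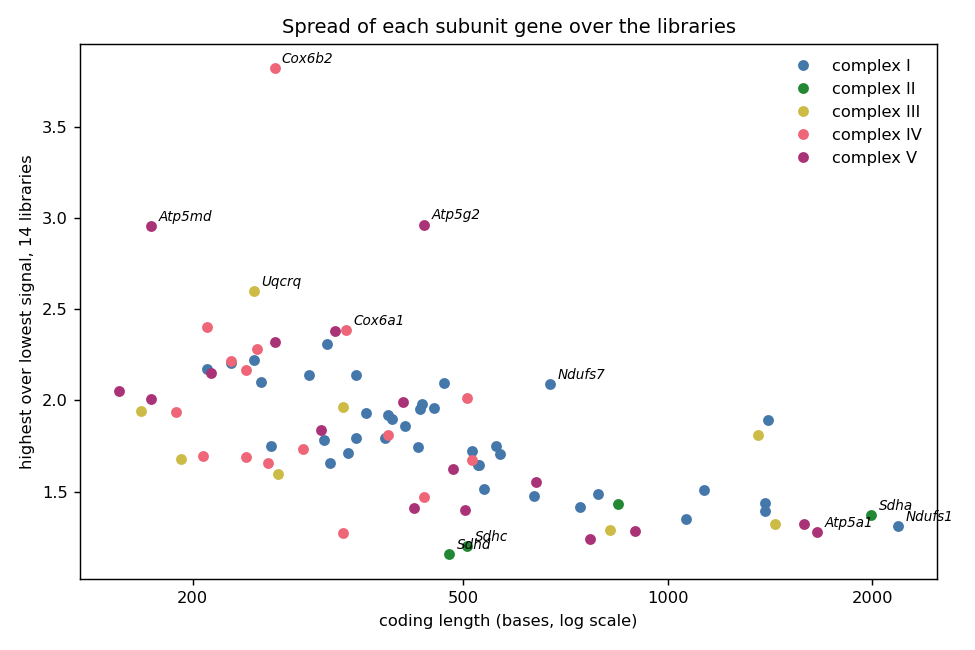
Ratio of the highest to the lowest of the 14 libraries for each subunit gene (vertical axis) against its coding length in bases (log scale), coloured by complex. The ratio tends to fall with coding length. Atp5md (2.95), Uqcrq (2.60) and Cox6a1 (2.38) have short coding sequences and stand high. Atp5a1 (1.28) and Atp5b (1.32) have long ones and stand low.

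MRL5 against DMSO in GX mice compares the compound with its vehicle where the GX channel is present. No subunit gene passed the test, limma on log2(signal + 1) over all 14 libraries with Benjamini-Hochberg adjustment over 14139 genes (adjusted p under 0.05). The count was 0 of 84, as it was over all genes tested (0%), and the smallest adjusted p of a member was 0.999. At an unadjusted p under 0.05 the count was also 0 of 84, where all genes gave 583 (4.12%). The fold changes were small and mostly negative: 75 of 84 were below 0, with a median of -0.087 and a range of -0.31 to 0.046 on the log2 scale, beside a median of 0.0055 over all genes. Medians were -0.10, -0.043, -0.053, -0.11 and -0.075 for complexes I to V. In no member did the groups separate without overlap, while 55 of all genes (0.389%) were lower and 101 higher without overlap. This sign rested on 1 library: without GX DMSO 4 the median was 0.039. It was -0.14 without GX DMSO 2, -0.16 without GX DMSO 3 and -0.042 without GX MRL5 4. With the set as a covariate it was -0.044 (64 of 84 below 0), within set 148 -0.042 (61 below 0) and with the length index -0.039 (67 below 0).

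The members with the smallest p each had their highest value of the GX mice in GX DMSO 4, though by unlike margins. Atp5md, a small membrane subunit of ATP synthase, read 9704, 10078, 8982 and 21948 in GX DMSO and 11898, 9321, 8727, 8032 and 10105 in GX MRL5. All values but that of GX DMSO 4 lie in overlapping ranges, and the log2 fold change was -0.31, SE 0.22. Atp5g2, one of the genes that encode the c subunit of the rotor ring, read 470, 390, 359 and 531 against 378, 422, 252, 313 and 464 (log2 fold change -0.27, SE 0.18). Cox6a1, known as the liver form of its subunit, read 2337, 1749, 2166 and 2800 in GX DMSO and 2479, 1794, 1769, 1669 and 1829 in GX MRL5 (log2 fold change -0.24, SE 0.16). Of the 5 MRL5 values 1 lies below the DMSO range and the others within it. Ndufb2 (-0.22, SE 0.16) and Ndufc2 (-0.22, SE 0.14), accessory subunits of complex I, had similar fold changes. The 7 core subunits of complex I had a median of -0.060, and among them Ndufs7 was at -0.19, SE 0.18, a size like that of these accessory subunits. Fold changes closer to 0 were those of Ndufv1, which takes up NADH, at -0.020, SE 0.11, Ndufs1 at 0.046, SE 0.075, Uqcrc1 at 0.011, SE 0.092 and Uqcrfs1 at -0.0032, SE 0.089. Cox5a of complex IV (0.010, SE 0.11) was also near 0, as were Atp5a1 (0.022, SE 0.081) and Atp5b (-0.0031, SE 0.087) of complex V.

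**Figure D3:**
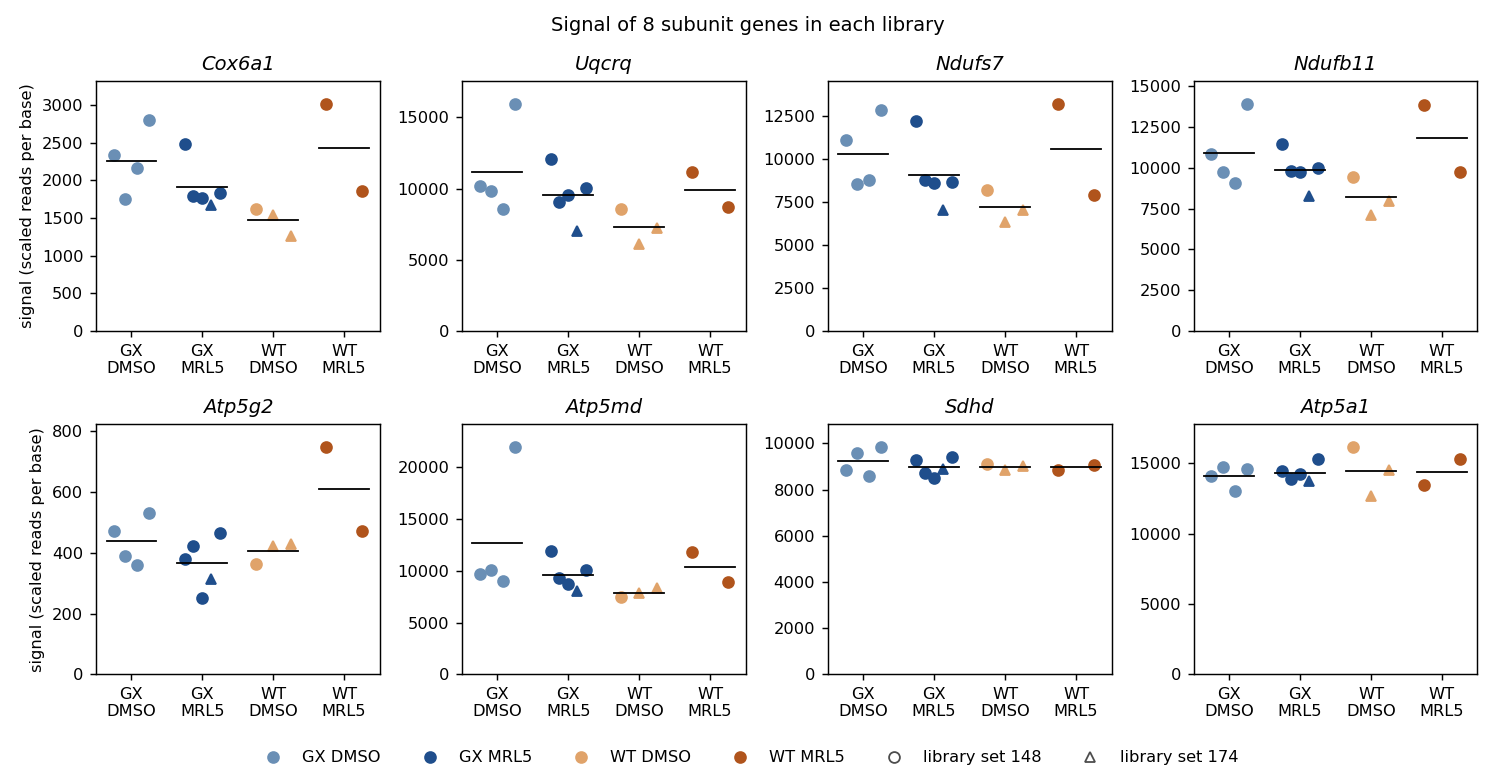
Signal (scaled reads per base, vertical axes) of 8 subunit genes in each library, by group; triangles mark library set 174 and bars are group means. GX DMSO 4 reaches 21948 for Atp5md and 15957 for Uqcrq, Sdhd runs only from 8518 to 9840, and Atp5g2 is highest in WT MRL5 1 (747).

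MRL5 against DMSO in WT mice compares the same treatments without the GX channel. Most subunit genes read higher with MRL5, but none passed the test (0 of 84, and 0% of all genes, with a smallest adjusted p of 0.832 for a member by limma). The median log2 fold change was 0.23 and 76 of 84 were above 0, beside a median of -0.0014 over all genes. At an unadjusted p under 0.05, 12 members were higher and 0 lower, where 411 of all genes (2.91%) were higher. The WT MRL5 libraries lay above all 3 WT DMSO libraries for 39 members and below them for 1. Of all genes 1352 (9.56%) were higher without overlap and 1364 were lower without overlap. Medians were 0.26, 0.034, 0.11, 0.22 and 0.19 for complexes I to V. Cardiomyocyte markers were above 0 in 8 of 8 (median 0.14), endothelial markers in 4 of 5 (0.21) and smooth muscle markers in 3 of 3 (0.26), while erythroid markers were below 0 in 5 of 5 (-0.17) and atrial markers in 3 of 3 (-1.95). Their part in the difference was not tested.

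Cox6a1 had the largest fold change among the members, with 3015 and 1854 in WT MRL5 and 1619, 1538 and 1265 in WT DMSO (log2 fold change 0.69, SE 0.22). Both MRL5 values are above every DMSO value, the first of them far above. Ndufb11, an accessory subunit of complex I, read 13856 and 9734 against 9430, 7113 and 7992 (0.52, SE 0.19). Atp5g1, a further c subunit gene, read 228711 and 167926 against 168883, 117910 and 131304, so that its lower MRL5 value falls among the DMSO values (0.51, SE 0.21). Cox4i1, the main form of complex IV subunit 4, read 40888 and 28056 against 27122, 20523 and 24257 (0.51, SE 0.21), and Ndufb7 read 44263 and 30994 against 30219, 23778 and 26495 (0.47, SE 0.19). In each of these genes WT MRL5 1 was well above WT MRL5 2, which lay nearer to the highest DMSO library. Ndufs1 was the 1 member lower without overlap, where 1364 of all genes were. It read 3991 and 4099 against 4375, 4406 and 4953 (-0.18, SE 0.10). In complex II the fold changes were 0.072, SE 0.12 for Sdha, 0.22, SE 0.13 for Sdhb, -0.050, SE 0.10 for Sdhc and -0.0039, SE 0.089 for Sdhd. Ndufab1, the mitochondrial acyl carrier protein bound to complex I, was at 2748 in WT MRL5 1, its lowest value of all libraries, and at 4545 in WT MRL5 2.

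Library set moved with this comparison, since 2 of the 3 WT DMSO libraries and neither of the WT MRL5 libraries are of set 174. With the set as a covariate the median of the members was 0.11, and within set 148, where 1 WT DMSO library is left, it was 0.13. With the length index as a covariate it was 0.064. The count of 12 members was 1 with the set as a covariate, where 327 of all genes were higher at that p. With the length index it was 2, where 203 of all genes were higher. Without WT DMSO 2, the library with the highest atrial markers, the median was 0.16 and the count was 1, where 336 of all genes were higher. Leaving out WT DMSO 3 gave a count of 5, where 263 of all genes were higher. The median was 0.17 without WT MRL5 1 and 0.29 without WT MRL5 2, each of which leaves 1 library in that group. With 1 WT DMSO library in set 148, set and treatment can hardly be told apart, and the part of atrial tissue and transcript length was not tested beyond these values.

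GX against WT under DMSO compares the genotypes alone, and it shares the WT DMSO libraries with the comparison above. Subunit genes read mostly higher in GX, and none passed (0 of 84, and 0% of all genes, with a smallest adjusted p of 0.867 for a member by limma). The median log2 fold change was 0.23, with 76 of 84 above 0 and a median of -0.017 over all genes. At an unadjusted p under 0.05, 18 members were higher and 0 lower, where 415 of all genes (2.94%) were higher. The 4 GX libraries lay above all 3 WT libraries for 10 members, Ndufb4, Ndufb6, Ndufb7, Ndufs7, Uqcrq, Cox6a1, Cox8b, Atp5e, Atp5j and Atp5md. Of all genes 479 (3.39%) did so. No member was lower without overlap, where 568 of all genes were. Medians were 0.26, 0.010, 0.16, 0.22 and 0.15 for complexes I to V. Cardiomyocyte markers were likewise above 0 in 8 of 8 (median 0.17) and endothelial markers in 4 of 5 (0.23). Erythroid markers were below 0 in 5 of 5 (-0.39), macrophage markers in 4 of 5 (-0.45) and atrial markers in 3 of 3 (-1.64).

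In complex I, Ndufs7 read 11116, 8521, 8751 and 12838 in GX DMSO and 8198, 6312 and 7036 in WT DMSO (log2 fold change 0.51, SE 0.20). Ndufb7 read 36977, 31168, 31475 and 42943 against 30219, 23778 and 26495 (0.40, SE 0.16), and the lowest GX value is just above the highest WT value in both genes. Ndufb2 (0.45, SE 0.18), Ndufb4 (0.42, SE 0.17) and Ndufb6 (0.38, SE 0.15) were similar in size. In complex III, Uqcrq, a small subunit, read 10200, 9835, 8600 and 15957 against 8585, 6141 and 7250 (0.58, SE 0.20), so that its lowest GX and highest WT libraries almost touch. In complex IV, Cox6a1 (0.61, SE 0.18) had 1749 as the lowest GX value and 1619 as the highest WT value. Cox8b, a heart and muscle form, read 8722, 7437, 7373 and 13841 against 7128, 5759 and 7196 (0.44, SE 0.20). In complex V, Atp5md read 7429, 7828 and 8371 in WT DMSO, all below its GX DMSO values (0.58, SE 0.25). Atp5e, the epsilon subunit of the central stalk, had a log2 fold change of 0.39, SE 0.17 and Atp5j, coupling factor F6 of the peripheral stalk, one of 0.43, SE 0.21. The catalytic subunits Atp5a1 (-0.027, SE 0.093) and Atp5b (0.053, SE 0.10) had fold changes near 0.

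This difference also rested on few libraries. Without GX DMSO 4 the median of the members was 0.089 and 2 members were higher at an unadjusted p under 0.05. Without WT DMSO 2 it was 0.16 and 1 member was. Of all genes 225 and 265 were higher at that p in these fits. The count of members was 8 without WT DMSO 3, 10 without GX DMSO 1 and 35 without GX DMSO 3. Of all genes 234, 308 and 524 were higher there, in that order. All 4 GX DMSO libraries are of set 148, as is 1 of the WT DMSO libraries. With the set as a covariate the median came to 0.093, within set 148 to 0.11 and with the length index to 0.066. In place of 18 higher members at an unadjusted p under 0.05, the set as a covariate gave 1 higher and 1 lower. Of all genes 202 were higher and 166 lower in that fit. The length index gave 2 higher members, where 221 of all genes were higher. Scaling the columns to equal sums gave 0.13 for the members and moved the median of all genes to -0.11; at an unadjusted p under 0.05, 3 members were then higher and 1 lower, and 94 of all genes higher and 718 lower. For macrophage markers the sums of the GX mice were 993 to 1261 and those of the WT mice 1209 to 2015, and their part in the difference was not tested.

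**Figure D4:**
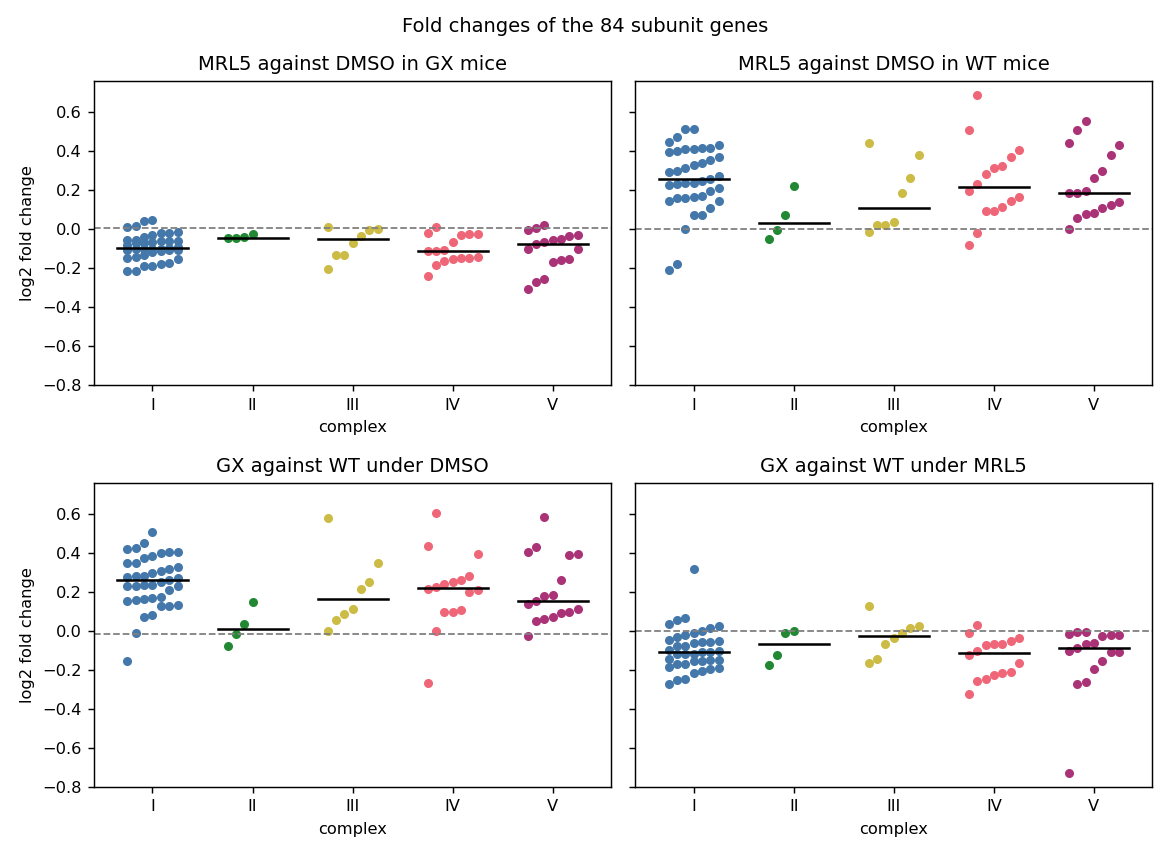
Log2 fold change of each of the 84 subunit genes (vertical axis) by complex in 4 comparisons; bars are medians of a complex and the dashed line is the median of all genes tested. Members lie mostly above the line for MRL5 in WT mice and for the genotypes under DMSO (76 of 84 above 0 in each, which share the WT DMSO libraries), and mostly below it in the other comparisons.

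Under MRL5, GX mice read slightly lower than WT mice, with a median log2 fold change of -0.10 over the members (73 of 84 below 0) and of -0.0027 over all genes. Medians were -0.11, -0.067, -0.024, -0.11 and -0.088 for complexes I to V. None passed the test (0 of 84, 0% of all genes, smallest adjusted p 0.689 by limma). A single member had an unadjusted p under 0.05, Atp5g2, where 423 of all genes (2.99%) were lower at that p. Atp5g2 read 378, 422, 252, 313 and 464 in GX MRL5 and 747 and 471 in WT MRL5 (-0.73, SE 0.23), and the nearest values of the groups almost meet. Sdha and Cox5b were the other members lower without overlap, 3 in all, where 636 of all genes (4.5%) were. Sdha read 4095, 3822, 3974, 3434 and 4069 in GX MRL5 and 4644 and 4110 in WT MRL5 (-0.17, SE 0.11). Without WT MRL5 1 the median of the members was -0.018 and no member reached an unadjusted p under 0.05. Leaving out WT MRL5 2 gave a median of -0.17, and leaving out GX MRL5 4 one of -0.047. With the set as a covariate it was -0.056 and with the length index -0.035, with 1 member lower at that p in each. Of all genes 514 and 455 were lower at that p in these fits.

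Whether the MRL5 effect depended on genotype was tested as an interaction, which was negative for 76 of 84 members. The median was -0.31 for the members and 0.016 for all genes. It uses all 4 groups and so holds the same values as the comparisons above. No member passed (0 of 84, 0% of all genes, smallest adjusted p 0.756 by limma), and 15 had an unadjusted p under 0.05 with a lower value, where 462 of all genes (3.27%) did. Cox6a1 had the largest interaction (-0.93, SE 0.27), followed by Atp5g2 (-0.83, SE 0.31), Ndufs7 (-0.71, SE 0.30), Atp5j (-0.70, SE 0.32), Atp5md (-0.69, SE 0.37), Atp5g1 (-0.68, SE 0.26) and Ndufb11 (-0.65, SE 0.24). Medians were -0.36, -0.067, -0.16, -0.34 and -0.29 for complexes I to V. The median was -0.19 without GX DMSO 4, -0.15 with set as covariate and -0.11 with the length index. The count of 15 was 28 without GX DMSO 3, where 513 of all genes were lower at that p, and 9 without GX DMSO 4, where 329 were. It was 4 without WT DMSO 2 and 9 without GX MRL5 4. With the set as a covariate it was 2, where 344 of all genes were lower, and with the length index 2, where 233 were. For fits that leave 1 library in a group only the median is given. It was -0.26 without WT MRL5 1, -0.36 without WT MRL5 2 and -0.17 within set 148.

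Fold changes were smallest in the class of longest members, and the longest class was also lowest among genes outside the pathway. For GX against WT under DMSO the median log2 fold change of members was 0.26 in the shortest, 0.28 in the middle and 0.13 in the longest class of coding length. Other genes with a mean signal of at least 1000 had medians of 0.21 (67 genes), 0.15 (180 genes) and 0.046 (1398 genes) in the same classes. For MRL5 in WT mice the members had medians of 0.23, 0.31 and 0.15 and the other genes 0.20, 0.13 and 0.035. The cytosolic ribosomal protein genes had medians of 0.17 and 0.13 in these comparisons. The difference between the subunit genes and these genes was not tested.

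Isoform pairs of complex IV give a ratio within each library, which scaling of a library does not change. The log2 ratio of the heart form Cox6a2 to Cox6a1 was 3.60 ± 0.18 (SD, n = 4) in GX DMSO, 3.72 ± 0.19 (n = 5) in GX MRL5, 3.92 ± 0.32 (n = 3) in WT DMSO and 3.47 ± 0.53 (n = 2) in WT MRL5. These ratios are of signals, so their size does not give a ratio of molecules. For Cox7a1, the heart and muscle form, to Cox7a2 the ratio was 2.27 ± 0.25 in GX DMSO and 2.38 ± 0.10 in GX MRL5, and for Cox8b to Cox8a 2.00 ± 0.17 and 1.95 ± 0.11. For Cox4i2, known as the lung form, to Cox4i1 it was -7.87 ± 0.078 and -7.90 ± 0.27, and for the testis form Cox6b2 to Cox6b1 -7.89 ± 0.82 and -7.89 ± 0.53.

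None of the 5 ratios differed between MRL5 and DMSO in GX mice beyond the spread between libraries. In two-sided exact permutation tests of 5 against 4 libraries, where 0.0159 is the smallest p possible, MRL5 minus DMSO was 0.13 for Cox6a2 to Cox6a1 (exact p = 0.365), 0.12 for Cox7a1 to Cox7a2 (exact p = 0.460) and -0.046 for Cox8b to Cox8a (exact p = 0.667). It was -0.034 for Cox4i2 to Cox4i1 (exact p = 0.825) and -0.0055 for Cox6b2 to Cox6b1 (exact p = 0.921), and the Benjamini-Hochberg adjusted permutation p was 0.921 for all 5. The lowest ratio of Cox7a1 to Cox7a2 of all libraries was that of GX DMSO 4 (1.89). The libraries of set 174 had the 3 highest ratios of Cox4i2 to Cox4i1, at -7.24 in WT DMSO 2, -7.42 in GX MRL5 4 and -7.73 in WT DMSO 3.

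**Figure D5:**
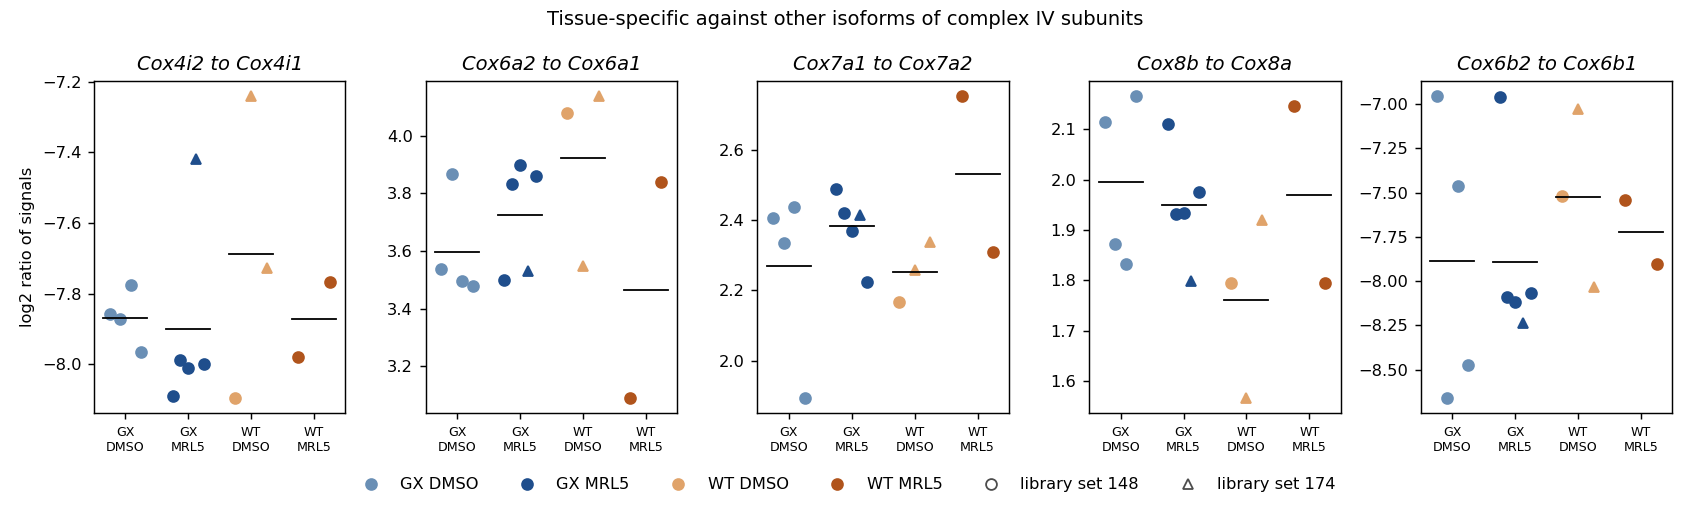
Log2 ratio of the signals of 5 isoform pairs of complex IV in each library, by group; each panel has its own axis, triangles mark library set 174 and bars are group means. GX DMSO and GX MRL5 overlap in every panel, and the 3 libraries of set 174 are the highest for Cox4i2 to Cox4i1.

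Other genes of the pathway, 72 in all, gave no gene that passed in any comparison. For MRL5 in GX mice 56 of 72 had a fold change below 0 (median -0.080), for MRL5 in WT mice 43 were above 0 (median 0.070), and between genotypes under DMSO 54 were above 0 (median 0.14). In these comparisons, in the same order, the 18 assembly genes of complex IV had medians of -0.11, 0.23 and 0.16 and the 14 of complex I -0.058, 0.075 and 0.13. Medians were -0.042, 0.13 and 0.18 for 4 assembly factors of complex II, -0.12, 0.14 and 0.085 for 6 of complex III and -0.072, 0.20 and 0.12 for 4 genes of complex V assembly and inhibition. Cycs, the electron carrier cytochrome c, had fold changes of -0.15, 0.25 and 0.34 and Cyc1, cytochrome c1 of complex III, -0.079, 0.18 and 0.22.

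The 13 subunits encoded by mitochondrial DNA had a median of -0.048 for MRL5 in WT mice, with 10 of 13 below 0, where the nuclear median was 0.23. Their medians were -0.071 for MRL5 in GX mice and 0.16 between genotypes under DMSO. They made up 38.9% of the signal in WT MRL5 1, the lowest share of all libraries, and 44.8% in WT MRL5 2. The WT DMSO libraries held 40.6% to 44.6%. The difference between nuclear and mitochondrial genes was not tested. The 11 regulators had medians of -0.15, -0.061 and 0.080 in the comparisons as ordered above. Ppargc1a, the coactivator PGC-1 alpha, read 1626, 2177, 1598 and 1177 in GX DMSO and 1412, 1109, 646, 985 and 1474 in GX MRL5 (-0.57, SE 0.25, limma adjusted p = 0.999). Perm1, a muscle regulator of mitochondrial genes, read 6837, 9133, 7670 and 6626 against 6817, 6038, 6189, 5960 and 6231 (-0.27, SE 0.095, limma adjusted p = 0.999). The groups overlap in both, which were named after their values were seen, as the 2 of 11 regulators with an unadjusted p under 0.05. Of all 14139 genes tested, 199 were lower at that p.

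The authors' deposited table gave no subunit gene a q-value under 0.05 for MRL5 in either genotype, and the smallest q of a member there was 0.9995 in GX mice and 0.9986 in WT mice. Effects in the authors' deposited table, on a natural log scale, were negative for 75 of 84 members in GX mice (median -0.061) and positive for 75 of 84 in WT mice (median 0.16), where 5 of all genes had a q under 0.05.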

How the data were processed

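The deposited table of the authors holds 1 signal value per gene and library (scaled reads per base, per the file headers); kallisto, sleuth 0.3.0 and the build GRCm38 are named, per the submitters' processing notes. The authors also deposited q-values and effects on a natural log (ln) scale. The sources used here do not state how the signal was scaled, depth is unknown, and the signal was not rescaled. Of 14307 entries, 163 had the same values as another to 9 digits and were dropped, and 21 symbols turned into dates were restored. Genes with a value of at least 1 in 2 or more libraries were tested with limma 3.58.1 (R 4.3.3, trend and robust, 1 mean per group, 10 residual degrees of freedom) on log2(value + 1), which understates low genes. Unadjusted p-values shown come from the same fit. Coordinates and lengths are from GENCODE M21. Ratios were tested with scipy 1.17.1. Named members were those with the 5 smallest p per comparison, those whose groups did not overlap in the GX drug or DMSO genotype comparison (up to 4 per complex), complex II, the isoform pairs and core subunits, of which 1 is not reported here. The members, lists and rules were chosen with earlier results of these data known. The limma fit was tested on simulated data.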

Additional observations from a re-analysis of the deposited data

Results flagged for a closer look

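In groups of 4 or 5 libraries, 15 of 96 sets of values had 1 library far from the others by Dixon's ratio. Chance gives about 1 in 20 for independent sets. These sets are not independent, since the genes stood high or low in the same libraries and were partly named by their values. Of these, 7 were signals in GX DMSO 4, each above the range of the other 3 GX DMSO libraries: Ndufb4 at 3314 (others 2091 to 2297), Ndufc2 at 4895 (2827 to 3133), Cox6b1 at 6045 (3676 to 3960), Cox7a2 at 6847 (3063 to 3375), Cox8a at 3084 (2014 to 2071), Atp5j at 13471 (6714 to 7700) and Atp5md at 21948 (8982 to 10078). This library also had the highest length index (1.20), and the part of that in these values was not tested. In GX DMSO 2 the log2 ratio of Cox6a2 to Cox6a1 was 3.87, against 3.48 to 3.54 in the other 3. In GX MRL5 1, Ndufv1 stood at 8763 (others 6880 to 7078), Cox6a1 at 2479 (1669 to 1829), Cox6b2 at 33.5 (12.3 to 16.6) and the log2 ratio of Cox6b2 to Cox6b1 at -6.96 (-8.24 to -8.07). In GX MRL5 4, of library set 174, Cox6a2 stood at 19300 (25580 to 28033) and the log2 ratio of Cox4i2 to Cox4i1 at -7.42 (-8.09 to -7.99). Ndufab1 stood at 4960 in GX MRL5 5 (4231 to 4335).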

How the results depend on the processing

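No subunit gene was called under any alternative run: other scalings, filters and pseudocounts, a fit of the 2 groups alone, set or length index as a covariate, set 148 alone, and single libraries left out. With single libraries left out, counts of all genes called ran from 0 to 2 for MRL5 in GX mice, 0 to 58 for MRL5 in WT mice, 0 to 63 for the genotypes under MRL5 and 0 to 27 for the interaction; the counts of 58, 63 and 27 were without WT MRL5 2. A fit of the 2 groups alone called 1 gene for the genotypes under MRL5, and the interaction called 1 with equal column sums and 1 with equal nuclear sums. The members' interaction median of -0.31 became -0.11 with the length index. With the set as a covariate and within set 148, Cox6a2 turned to -0.072 and -0.067 for MRL5 in WT mice, -0.025 and -0.020 between genotypes under DMSO and 0.052 and 0.048 for the interaction. Sdhb turned to -0.025 and -0.047 between genotypes under DMSO. With the length index, Ndufc2 (-0.011) and Atp5md (-0.00058) turned for MRL5 in WT mice. With single libraries left out, fold changes between genotypes under MRL5 ran from -0.044 to 0.68 for Ndufab1, -0.50 to 0.0090 for Ndufb11, -0.45 to 0.075 for Ndufb6, -0.43 to 0.086 for Ndufb7, -0.50 to 0.045 for Cox4i1, -0.67 to 0.027 for Cox6a1 and -0.60 to 0.077 for Atp5j, each turning without WT MRL5 1. Ndufab1 ran from -0.57 to 0.16 for MRL5 in WT mice, turning without WT MRL5 1, and Atp5e from -0.25 to 0.011 for MRL5 in GX mice, turning without GX DMSO 4. The cause was not tested. No paired analysis was possible because the replicate numbers only follow the order in which the records are listed. Depth is unknown, groups hold 2 to 5 mice, and where an arm was left with 1 library it was assumed to vary like the other groups.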
